A study of Mus musculus with 12 samples.

Results

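The 39 genes described here mark cell lineages other than epithelium: 14 mark fibroblasts, 14 leukocytes and 11 endothelium. They were listed by name for their use as lineage markers, not for any measured value, though earlier results of these data were known. They stand among 21887 protein-coding genes with a position in the RefSeq gene table. H3K4me3 and H3K27me3 were profiled in them by CUT&Tag, in which an antibody brings a transposase to a histone mark so that the DNA beside it is cut out and sequenced. The 12 libraries came from breast cancer organoids (tumoroids) of PyMT origin and genotype WT, with 500000 cells per sample. For each mark there were 3 groups, Ctrl, SR2 and THC, each taken 3 days after treatment in 2 replicates whose numbers are also their batch numbers. PyMT is a viral oncogene whose transgene gives mice mammary tumours, and every group, Ctrl included, shares that origin. What SR2 and THC stand for, their doses, what the Ctrl organoids received, the promoter that drives PyMT and the number of tumours behind the organoids are not given in the sources used here. Nothing in the labels ties the replicates to separate cultures, so the p-values below speak only for the spread among these libraries, which could be technical.

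H3K4me3 sits at the starts of genes that are active or poised for activity, and a gene's start without it is usually silent. H3K27me3 is laid down by Polycomb repressive complexes and covers many silent developmental regulators, while other silent genes carry neither mark. Fibroblasts of a tumour build its collagen matrix, leukocytes infiltrate it and endothelial cells line its vessels. Organoids are grown from the tumour's epithelial cells, so the markers of these lineages address how epithelial the cultures were and how genes of other lineages were marked in them. In a bulk library, a mark present in a few cells and a weak mark present in many cannot be told apart.

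For replicates 1 and 2 the H3K4me3 lists of Ctrl held 18383 and 16442 peaks, those of SR2 14812 and 15190, and those of THC 11924 and 13229. The H3K27me3 lists were shorter and differed more between replicates: 2712 and 387 peaks for Ctrl, 840 and 157 for SR2, 984 and 70 for THC. Peak lists hold no read totals, but the pileup (overlapping fragments) at each H3K4me3 summit could be recovered, with medians of 62 and 58 (Ctrl), 36 and 54 (SR2) and 21 and 44 (THC). The epithelial identity of the cultures was checked on 34 epithelial genes (keratins, claudins, Epcam, Cdh1, Esrp1 and others), also listed with earlier results of these data known. All 34 had H3K4me3 at the start in both Ctrl libraries, 33 in each SR2 library, and 28 and 33 in the THC libraries. Of the 34, 20 had an annotated start, and for the others a peak near either gene end was counted.

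Of the 39 lineage markers, 12 had an H3K4me3 peak in at least 1 library within 1 kb of the gene start, or of either end where no start was annotated. These were 30.8%, against 57.4% of all protein-coding genes. The same 12 markers had one in both Ctrl libraries (53.9% of all protein-coding genes had), and 3 of them, Lcp1, Ikzf1 and Flt1, had one in all 6 libraries (46.2% of all). Without the THC library of replicate 1 the last count was 5, with Pdpn and Cd4 added. By library the count was 12 and 12 for Ctrl, 9 and 9 for SR2, and 4 and 6 for THC. Over all 21887 protein-coding genes it was 12316 and 11892 for Ctrl, 11344 and 11772 for SR2, and 10275 and 11098 for THC. By lineage 4 of 14 fibroblast, 5 of 14 leukocyte and 3 of 11 endothelial markers were marked. The other 27 had no peak at the start in any of the 6 libraries. In no library did 20 of the 39 (51.3%) carry H3K4me3 at the start or H3K27me3 over the gene or 5 kb of flank. The same was true of 39.1% of all protein-coding genes. Annotated starts were at hand for 24 of the 39 genes, 8 of which were marked. For the other 15 (Col1a1, Pdgfrb, Dcn, Lum, Fap, Thy1, Cd4, Adgre1, Csf1r, Spi1, Tyrobp, Pecam1, Cdh5, Ramp2 and Sox17) either end of the gene was used. Of these, 4 were marked (Col1a1, Cd4, Spi1 and Ramp2), and the marked end may not be the start. By the same definitions 58% of protein-coding genes with an annotated start and 55% of those taken by either end were marked in at least 1 library. In both Ctrl libraries the members numbered 8 of 24 (54.8% of all genes with an annotated start) and 4 of 15 (50.4% of those by either end), and in all 6 libraries 3 of 24 (47.4%) and 0 of 15 (41.5%).

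**Figure D1:**
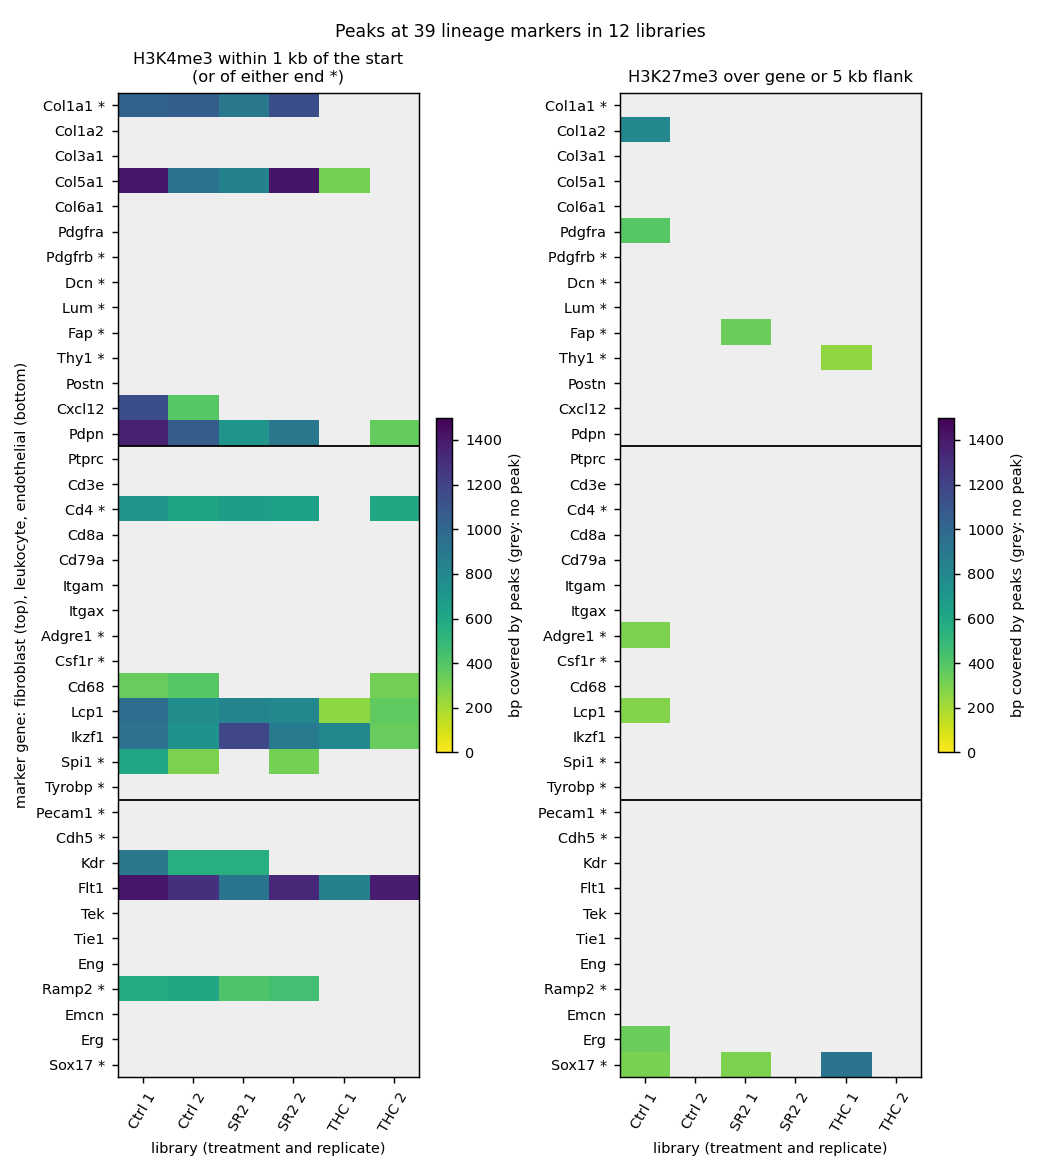
Base pairs covered by peaks (colour scale, grey for no peak) at each of the 39 markers (rows, grouped by lineage; an asterisk marks genes taken by either end) in each library (columns), for H3K4me3 at the start (left) and H3K27me3 over the gene or 5 kb flank (right). H3K4me3 was found at 12 markers in both Ctrl libraries and at 4 and 6 in the THC libraries, and H3K27me3 was seen only in libraries of replicate 1. Of all 21887 protein-coding genes, 11793 had H3K4me3 in both Ctrl libraries, and 10275 and 11098 in the THC libraries.

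The matrix of peaks by gene and library shows 2 separate patterns. H3K4me3 was at the start of a minority of the markers, and scattered H3K27me3 peaks were at other markers. Lcp1 alone had both H3K4me3 at the start and H3K27me3. Where H3K4me3 was present it was weak within its library. Ranked by −log10 q within the list of the Ctrl library of replicate 1, the peaks at the 12 marked genes stood at the 24.4th to 53.1st percentile (median 40.7), and 2 of the 12, Ikzf1 and Flt1, lay above the list's median. In the Ctrl library of replicate 2 they stood at the 15.6th to 46.0th percentile (median 32.1), and 0 of the 12 lay above it. Peaks at the 34 epithelial genes had medians of 59.4 and 58.2 in these 2 libraries, and those of all marked protein-coding genes 71.4 and 68.0. Summit pileups at the 12 genes in Ctrl ran from 10 (Kdr) to 68 (Ikzf1).

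Among members with an annotated start, most of the marked ones had promoters rich in CpG, the dinucleotide that DNA methylation acts on, and most of the unmarked ones did not. A promoter window (250 bases before the start and 50 from it, RefSeq starts on GRCm38.p6, the assembly of mm10) was called CpG-rich when its ratio of observed to expected CpG was at least 0.6 and its G and C content at least 50%. Of the 24 markers with an annotated start, 7 had a CpG-rich promoter (Col5a1, Cxcl12, Erg, Flt1, Ikzf1, Kdr and Lcp1), and all of these but Erg were marked in both Ctrl libraries. Of the 17 with CpG-poor promoters only, 2 were marked, Cd68 and Pdpn. The same order held over all protein-coding genes: 89.0% of those with a CpG-rich promoter and 22.8% of those with CpG-poor promoters were marked in both Ctrl libraries. The 20 epithelial genes with an annotated start were divided evenly, 10 with CpG-rich and 10 with CpG-poor promoters, and all 20 were marked in both Ctrl libraries. Over the 30 annotated starts of the markers the median window held 5 CpG, against 7 over the 32851 windows of the whole table, and 23.3% against 33.5% were CpG-rich.

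The promoters below show this difference in letters, with 1 marked and 1 unmarked gene of each lineage and then 2 of the 3 that depart from it (Cd68 is the other), and with every CG in capitals. All are read 5′ to 3′ on the gene's strand from the RefSeq promoter table. Col5a1 (chr2:27886175-27886474, plus strand, 34 CpG), Ikzf1 (chr11:11685675-11685974, plus strand, 52 CpG) and Flt1 (chr5:147725962-147726261, minus strand, 29 CpG) were marked. Col3a1 (chr1:45311288-45311587, plus strand, 0 CpG), Cd3e (chr9:45009562-45009861, minus strand, 8 CpG) and Emcn (chr3:137340828-137341127, plus strand, 2 CpG) were not marked in any library. Erg (chr16:95586544-95586843, minus strand, 16 CpG) was CpG-rich and unmarked, and Pdpn (chr4:143299515-143299814, minus strand, 7 CpG) CpG-poor and marked.
Col5a1: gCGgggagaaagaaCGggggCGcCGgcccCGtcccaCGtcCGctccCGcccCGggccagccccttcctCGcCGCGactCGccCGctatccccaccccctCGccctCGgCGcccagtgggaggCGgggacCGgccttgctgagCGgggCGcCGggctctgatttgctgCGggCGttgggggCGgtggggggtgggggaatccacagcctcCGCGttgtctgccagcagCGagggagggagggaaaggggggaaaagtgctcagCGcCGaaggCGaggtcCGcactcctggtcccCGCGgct
Col3a1: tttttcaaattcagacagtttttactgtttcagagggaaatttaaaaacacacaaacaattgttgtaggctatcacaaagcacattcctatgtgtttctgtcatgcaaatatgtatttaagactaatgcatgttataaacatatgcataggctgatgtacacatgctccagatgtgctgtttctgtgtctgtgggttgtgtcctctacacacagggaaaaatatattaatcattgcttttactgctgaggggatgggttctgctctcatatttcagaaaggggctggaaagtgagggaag
Ikzf1: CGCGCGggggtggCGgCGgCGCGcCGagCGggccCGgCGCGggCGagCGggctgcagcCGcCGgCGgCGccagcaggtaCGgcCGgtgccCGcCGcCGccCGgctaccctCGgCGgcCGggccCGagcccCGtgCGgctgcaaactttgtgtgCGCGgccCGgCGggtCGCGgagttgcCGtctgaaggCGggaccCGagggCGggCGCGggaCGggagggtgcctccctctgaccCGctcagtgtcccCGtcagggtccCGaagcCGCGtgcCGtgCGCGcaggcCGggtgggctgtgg
Cd3e: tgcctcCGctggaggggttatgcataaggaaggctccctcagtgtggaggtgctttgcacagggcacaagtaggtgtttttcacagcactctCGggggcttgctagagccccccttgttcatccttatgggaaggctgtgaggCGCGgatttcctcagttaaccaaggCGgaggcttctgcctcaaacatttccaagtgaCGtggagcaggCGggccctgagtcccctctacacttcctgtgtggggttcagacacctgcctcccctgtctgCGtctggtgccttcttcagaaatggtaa
Flt1: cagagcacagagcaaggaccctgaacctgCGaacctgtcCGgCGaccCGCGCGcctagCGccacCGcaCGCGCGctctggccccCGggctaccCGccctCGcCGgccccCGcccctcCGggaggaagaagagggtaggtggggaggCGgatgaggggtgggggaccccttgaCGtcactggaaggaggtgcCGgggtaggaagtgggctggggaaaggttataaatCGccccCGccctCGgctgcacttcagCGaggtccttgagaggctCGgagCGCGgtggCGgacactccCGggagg
Emcn: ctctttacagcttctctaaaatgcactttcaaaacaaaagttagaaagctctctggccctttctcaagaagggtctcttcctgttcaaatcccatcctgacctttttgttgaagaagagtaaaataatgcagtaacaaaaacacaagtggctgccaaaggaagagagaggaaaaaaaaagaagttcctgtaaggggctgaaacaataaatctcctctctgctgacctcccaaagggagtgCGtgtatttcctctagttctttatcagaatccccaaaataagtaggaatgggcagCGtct
Erg: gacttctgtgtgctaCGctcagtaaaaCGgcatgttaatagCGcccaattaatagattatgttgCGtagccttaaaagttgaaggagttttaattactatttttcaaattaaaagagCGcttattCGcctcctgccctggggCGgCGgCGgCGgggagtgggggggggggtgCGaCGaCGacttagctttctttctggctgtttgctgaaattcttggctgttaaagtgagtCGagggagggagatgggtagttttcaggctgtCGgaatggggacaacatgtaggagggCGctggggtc
Pdpn: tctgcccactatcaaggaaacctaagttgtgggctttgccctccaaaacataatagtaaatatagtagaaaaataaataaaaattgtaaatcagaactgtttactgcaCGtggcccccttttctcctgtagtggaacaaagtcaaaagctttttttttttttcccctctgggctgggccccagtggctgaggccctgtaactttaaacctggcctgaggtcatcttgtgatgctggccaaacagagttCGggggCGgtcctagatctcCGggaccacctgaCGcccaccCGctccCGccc

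In the Ikzf1 and Flt1 windows the capitals run through the whole sequence, whereas in Emcn and Cd3e they are few and Col3a1 has none. Pdpn has most of its capitals in the last bases of the window, at the start and after it, and the H3K4me3 region of Pdpn lay on that side, with summits 488 to 873 bp inside the gene. Erg, with a G and C content of 50.3%, was just above the limit. Short motifs were searched on both strands of the 30 windows. The Sp1 motif GGGCGG was found in 36.7% of them and in 35.7% of all windows of the table, CCAAT in 6 of the 30 and 37.4% of all, TATAAA in 16.7% of the 30 and 13.6% of all, GAGGAA (the core bound by PU.1, a factor of myeloid and B cells) in 43.3% and 28.3%, and CCGGAA (an ETS core) in 3.33% and 14.9%. The GAGGAA windows were of leukocyte (Cd3e, Cd68, Cd79a, Cd8a, Itgam and Ptprc), fibroblast (Col5a1, Col6a1 and Postn) and endothelial genes (Emcn, Eng, Flt1 and Tie1). All these matches describe the letters of the windows and are not evidence of binding.

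**Figure D2:**
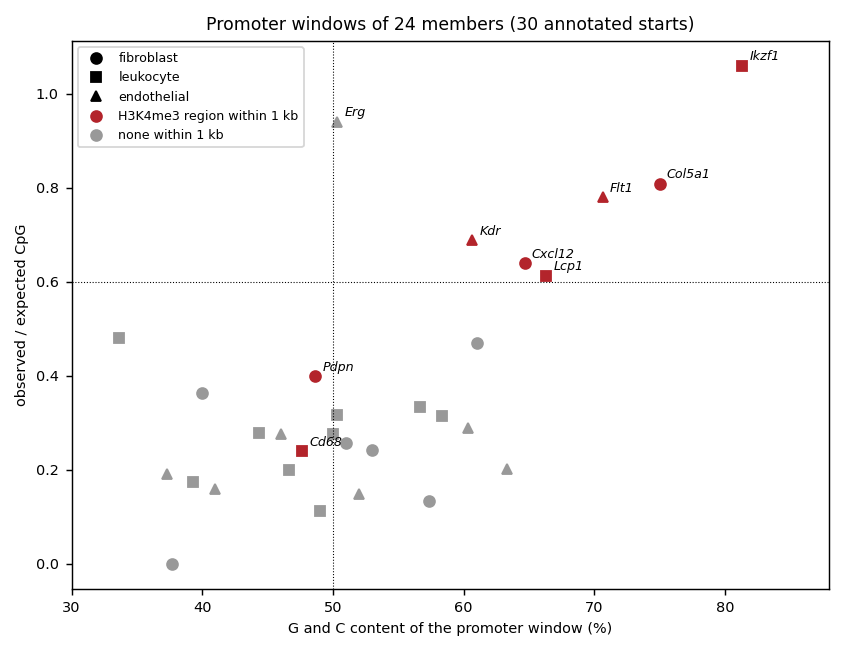
Ratio of observed to expected CpG (vertical) against G and C content in percent (horizontal) for the 30 promoter windows of 24 markers, by lineage (symbol) and by whether an H3K4me3 region lay within 1 kb of that start (red) or not (grey). Dotted lines stand at 0.6 and 50%; 6 of the 7 windows past both lines are red, and Pdpn and Cd68 are the red points outside them.

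In the plot of CpG ratio against G and C content the later starts of Ikzf1 and Lcp1 lie among the grey, CpG-poor windows, since the H3K4me3 regions of these genes were at their CpG-rich first starts.

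The 4 marked fibroblast genes were Col1a1, Col5a1, Cxcl12 and Pdpn. Col1a1 encodes the alpha 1 chain of type I collagen, the main fibre of the tumour matrix. Its H3K4me3 region (chr11:94936983-94938124) covered 1025 and 1045 bp in Ctrl, 901 and 1142 bp in SR2 and 292 and 360 bp in THC. Ctrl and SR2 overlapped and both THC libraries lay below them, and the THC peaks were 253 and 453 bp outside the 1 kb window, so that by the window Col1a1 counted as unmarked in THC. The change in THC against Ctrl on the log2(covered bp + 200) scale was −0.86 ± 0.16 (SE), with an adjusted p of 0.128 (limma, Benjamini-Hochberg over all 15772 regions tested), and 0.12 ± 0.16 in SR2 (adjusted p = 0.980).

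Col5a1 encodes a chain of type V collagen, which regulates the thickness of type I collagen fibres. Its region (chr2:27885919-27887378) covered 1410 and 926 bp in Ctrl, 841 and 1414 bp in SR2, and 314 and 0 bp in THC. Ctrl and SR2 overlapped fully, and both THC libraries were lower. The change was −1.69 ± 0.56 in THC (limma, adjusted p = 0.161) and 0.08 ± 0.56 in SR2 (adjusted p = 1.00). Without THC replicate 2 the THC value was −0.86, and without THC replicate 1 it was −2.5.

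Cxcl12 encodes a chemokine of stromal cells that attracts cells bearing the receptor CXCR4. Its region (chr6:117168298-117169437) covered 1140 and 389 bp in Ctrl and 0 bp in every SR2 and THC library. Both Ctrl libraries were thus above all 4 treated ones, with summit pileups of 18 and 12. The region entered the fit, which needed 2 marked libraries, through Ctrl alone, so the direction was set by that filter and the estimates of −2.01 in SR2 and −1.77 in THC are given without a test.

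Pdpn encodes podoplanin, a membrane protein of fibroblasts that basal mammary epithelial cells are also known to make. Its region (chr4:143298057-143299517) covered 1363 and 1055 bp in Ctrl, 717 and 900 bp in SR2, and 0 and 352 bp in THC. The 3 groups did not overlap. The change was −1.70 ± 0.41 in THC (limma, adjusted p = 0.128) and −0.34 ± 0.41 in SR2 (adjusted p = 0.965). Without THC replicate 1 the THC value was −1.10, and without Ctrl replicate 1 the SR2 value was −0.22.

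The 10 fibroblast markers without H3K4me3 at the start in any library were Col1a2, Col3a1, Col6a1, Pdgfra, Pdgfrb, Dcn, Lum, Fap, Thy1 and Postn. They include the partner chain of Col1a1 in type I collagen (Col1a2) and the receptors for platelet-derived growth factor by which fibroblasts are often sorted (Pdgfra and Pdgfrb). Pdgfra had a region inside the gene (chr5:75155775-75156711, 3524 bp from its start) in all 6 libraries. It covered 925 and 766 bp in Ctrl, 456 and 790 bp in SR2 and 324 and 511 bp in THC. Fap and Pdgfrb had peaks inside the gene in single libraries only. Of 22 other fibroblast and matrix genes 11 were marked at the start. Fbln2, a matrix protein gene, was marked in all 6, and Col4a1 and Col4a2, which encode basement membrane collagen and share 1 region, and Col8a1 were each marked in 5.

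The 5 marked leukocyte genes were Cd4, Cd68, Lcp1, Ikzf1 and Spi1. Lcp1 encodes an actin-bundling protein of blood cells (L-plastin) that many tumour cells are also known to express. Its region (chr14:75130534-75131531) covered 959 and 764 bp in Ctrl, 823 and 799 bp in SR2, and 253 and 367 bp in THC. It was present in all 6 libraries, Ctrl and SR2 overlapped, and both THC libraries were lower. The start of Lrrc63, on the other strand, lies in the same region, so the mark cannot be assigned to 1 of the pair. The change was −0.68 ± 0.20 in THC (limma, adjusted p = 0.143) and 0.07 ± 0.20 in SR2 (adjusted p = 1.00).

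Ikzf1 encodes Ikaros, a zinc finger factor of lymphoid development. Its region (chr11:11685451-11686691) covered 936 and 728 bp in Ctrl, 1181 and 882 bp in SR2, and 802 and 350 bp in THC, so the 3 groups overlapped in part and no library lacked it. The start of a long noncoding RNA gene, Gm11999, lies on the other strand in the same region. The change was −0.09 ± 0.39 in THC (limma, adjusted p = 0.894) and 0.39 ± 0.39 in SR2 (adjusted p = 0.938), both within the spread. Leaving out 1 SR2 library gave 0.16 (replicate 1) or 0.62 (replicate 2) for the latter.

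Cd4 encodes the co-receptor of helper T cells. Its region (chr6:124863499-124864215) covered 717 and 625 bp in Ctrl, 663 and 647 bp in SR2, and 0 and 603 bp in THC. It lay outside the gene, beyond the end at 124864693, and held the end of the neighbouring gene Gpr162 at 124864195. Which of the gene ends are starts is not in the tables used, so this region may belong to either gene. The change in THC was −0.74 ± 0.57 (limma, adjusted p = 0.458), and the THC library of replicate 2 was close to the Ctrl values. Without THC replicate 1 the value was 0.13, and without THC replicate 2 it was −1.59.

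Cd68 encodes a lysosomal glycoprotein used as a macrophage marker. Its peak (chr11:69666044-69666434) was narrow, with 349 and 391 bp in Ctrl, 0 and 0 bp in SR2, and 0 and 317 bp in THC. The caller's local background at the summit was high, 21.0 and 15.5 in Ctrl and 9.37 in the marked THC library, against 1.21 to 6.96 at the other marked members in Ctrl. Eif4a1, a translation factor gene on the same strand with H3K4me3 in all 6 libraries, ends beside Cd68. With 1 treated library marked, this region too reached the filter only through Ctrl, and its estimates of −1.37 in SR2 and −0.45 in THC are a description. Without THC replicate 1 the latter was 0.11, and without THC replicate 2 it was −0.98.

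Spi1 encodes PU.1, a factor of myeloid and B cells. Its region (chr2:91115012-91115623) covered 612 and 296 bp in Ctrl, 0 and 312 bp in SR2, and 0 bp in both THC libraries. It lay at the end of the gene at 91115759, and whether that end is the start is not in the tables used. The SR2 library of replicate 2 overlapped the Ctrl values. This region also reached the filter only through Ctrl, and its estimates of −0.85 in SR2 and −1.29 in THC are a description. The SR2 estimate was −0.22 without SR2 replicate 1, −1.48 without SR2 replicate 2 and −0.53 without Ctrl replicate 1.

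The 9 leukocyte markers without H3K4me3 at the start in any library were Ptprc, Cd3e, Cd8a, Cd79a, Itgam, Itgax, Adgre1, Csf1r and Tyrobp. Among them are the defining markers of all leukocytes (Ptprc, or CD45), T cells (Cd3e, part of the T cell receptor complex), B cells (Cd79a, part of the B cell receptor) and macrophages (Adgre1, or F4/80, and Csf1r, the receptor of their growth factor). A single peak inside Adgre1 in 1 SR2 library was the only H3K4me3 peak within any of these 9 genes. Of 28 other leukocyte genes 2 were marked, Cd14 in all 6 libraries and Coro1a in 1. Cd14, a receptor for bacterial lipopolysaccharide, covered 1377 and 1357 bp in Ctrl, 1256 and 1422 bp in SR2, and 914 and 881 bp in THC.

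The 3 marked endothelial genes were Kdr, Flt1 and Ramp2. Flt1 and Kdr encode the VEGF receptors 1 and 2, through which vascular endothelial growth factor drives vessel growth. The Flt1 region (chr5:147724999-147726407) covered 1409 and 1300 bp in Ctrl, 919 and 1335 bp in SR2, and 839 and 1378 bp in THC. It was present in all 6 libraries, and within SR2 and THC the libraries of replicate 2 lay in the range of Ctrl while those of replicate 1 were below it. The change was 0.10 ± 0.16 in THC (limma, adjusted p = 0.713) and −0.11 ± 0.16 in SR2 (adjusted p = 0.989).

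The Kdr region (chr5:75977719-75978802) covered 897 and 559 bp in Ctrl, 559 and 0 bp in SR2, and 0 bp in both THC libraries. The higher SR2 value equalled the lower Ctrl value. Its Ctrl summits had pileups of 18 and 10, of which 10 was the lowest among the marked members in Ctrl. Kdr too reached the filter only through Ctrl, and its estimates of −1.81 in THC and −1.09 in SR2 are a description. The SR2 estimate was −2.10 without SR2 replicate 1 and −0.076 without SR2 replicate 2.

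Ramp2 encodes a partner protein that makes a receptor for adrenomedullin, a peptide needed for vessel integrity. Its region (chr11:101246107-101246726) covered 580 and 608 bp in Ctrl, 412 and 448 bp in SR2, and 0 bp in both THC libraries. The 3 groups did not overlap, and the spread within Ctrl and SR2 was small (594 ± 19.8 and 430 ± 25.5 bp, SD, n = 2). The change was −1.61 ± 0.36 in THC (limma, adjusted p = 0.128) and −0.20 ± 0.36 in SR2 (adjusted p = 1.00).

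The 8 endothelial markers without H3K4me3 at the start were Pecam1, Cdh5, Tek, Tie1, Eng, Emcn, Erg and Sox17. Pecam1 (CD31) and Cdh5 (VE-cadherin) are adhesion molecules of endothelial junctions, Tek and Tie1 receptors of the angiopoietin system, and Erg and Sox17 transcription factors of endothelium. Eng, a co-receptor for TGF-beta, had a region inside the gene (chr2:32679804-32680708, 33209 bp from its start) with 487 and 404 bp in Ctrl, 321 and 0 bp in SR2, and 0 and 343 bp in THC. Pecam1 had 3 peaks and Erg 1 peak inside the gene, each in a single library. Of 21 other endothelial genes 9 were marked, with Sox7 in all 6 libraries and Prox1, Egfl7 and Nos3 in 5. Of 11 genes of pericytes and smooth muscle 3 were marked, Notch3 and Mcam in all 6 libraries and Kcnj8 in 2.

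**Figure D3:**
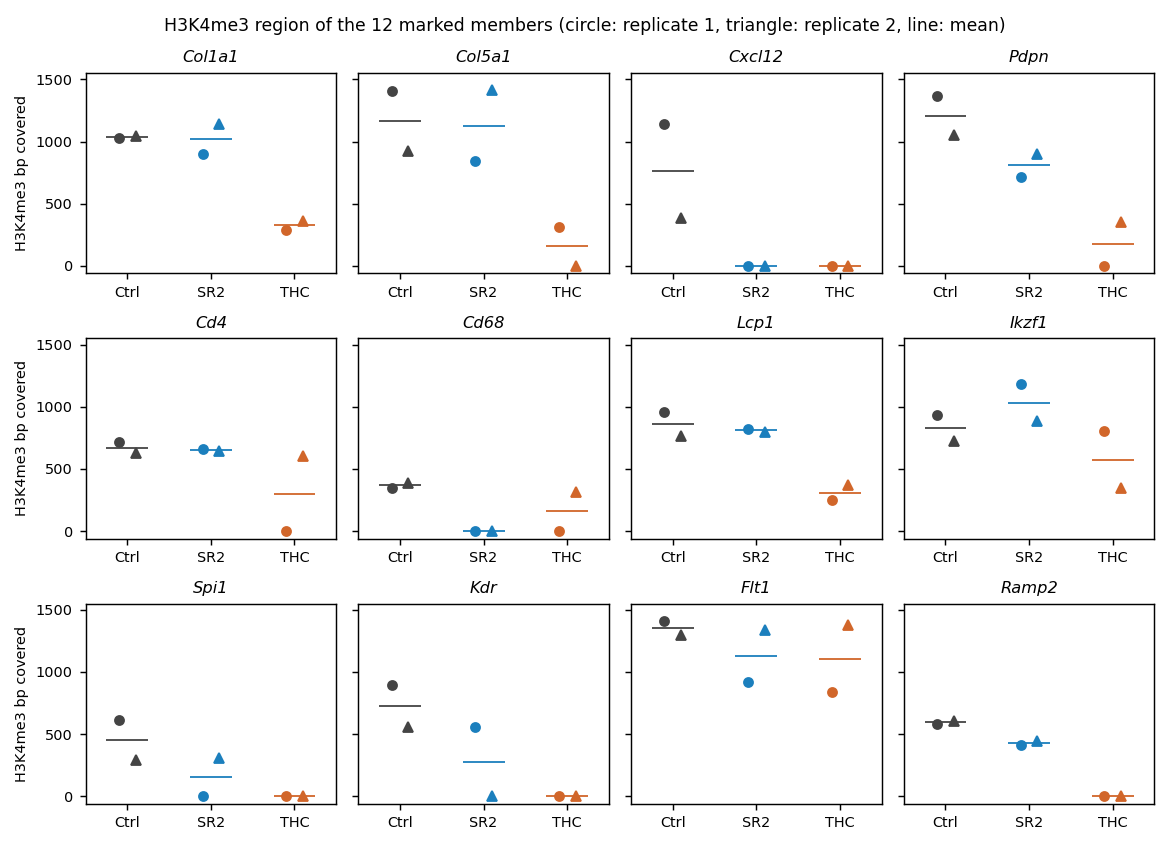
H3K4me3 bp covered (vertical, linear scale from 0) in each library of Ctrl, SR2 and THC for the 12 marked members; circles are replicate 1, triangles replicate 2 and lines the mean of the 2. Both THC libraries lie below both Ctrl libraries in every panel except Ikzf1 and Flt1, and Cxcl12 is at 0 in all SR2 and THC libraries.

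The panels of covered bp by member show the groups apart or overlapping as described gene by gene above. The comparison of each treatment with Ctrl asks whether treated organoids carried the mark at these genes to a different extent. Of the 12 genes marked in both Ctrl libraries, 2 (Cxcl12 and Cd68) had no peak at the start in either SR2 library, against 1.62% of all 11793 protein-coding genes marked in both Ctrl libraries. In THC 5 (Col1a1, Cxcl12, Spi1, Kdr and Ramp2) had none, against 5.67% of all. Col1a1 did have a peak in both THC libraries, but outside the 1 kb window. With a window of 500 bp or 2 kb, or an overlap of at least 200 bp, the THC count was 4, without Col1a1. With every H3K4me3 list reduced to its 11924 strongest peaks, the count was 0 in SR2 and 3 in THC (Col1a1, Pdpn and Ramp2). Without the THC library of replicate 2 the THC count was 8, with Pdpn, Cd4 and Cd68 added. For these other settings the share of all genes is not given, so the counts describe the members only. No member was marked in both libraries of a treatment and in neither Ctrl library. The shorter and shallower THC lists and the low rank of the members' peaks move with these counts, and their part in the result was not tested.

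In covered bp, both THC libraries lay below both Ctrl libraries at 10 of the 12 regions, close to the 86.6% of all 14612 regions marked in both Ctrl libraries, and both SR2 libraries at 4 of the 12 against 53.3%. Compared within each batch, THC was lower than Ctrl in both batches at 11 of the 12 regions (88.9% of all) and SR2 at 5 of the 12 (61.1% of all). Lower coverage in THC was thus about as frequent at the members as over all regions. After centring each library on regions marked in all 6, limma called 0 of 15772 regions in any of the 3 comparisons at an adjusted p of 0.05 (0% called), and so 0 of the 12 members. At an unadjusted p under 0.05, 8.91% of regions were narrower and 0.653% wider in SR2 than in Ctrl, and 18.4% narrower and 4.41% wider in THC. Under quantile normalization the THC counts were 1048 narrower and 1108 wider, in place of 2903 and 695. Of the 12 members, Cxcl12, Cd68, Spi1 and Kdr reached the filter only through Ctrl. Among the other 8, 0 were narrower at that level in SR2, 5 (Col1a1, Col5a1, Pdpn, Lcp1 and Ramp2) in THC, and 0 were wider. Under quantile normalization 3 of these 8 (Col1a1, Col5a1 and Pdpn) were narrower in THC. Their median change in THC was −0.80, and −0.37 under quantile normalization, against −0.15 and 0.067 over all regions. Only members with a region could enter the fit, and the 8 were set apart after their values were seen, so these values describe them and not the 39 markers.

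**Figure D4:**
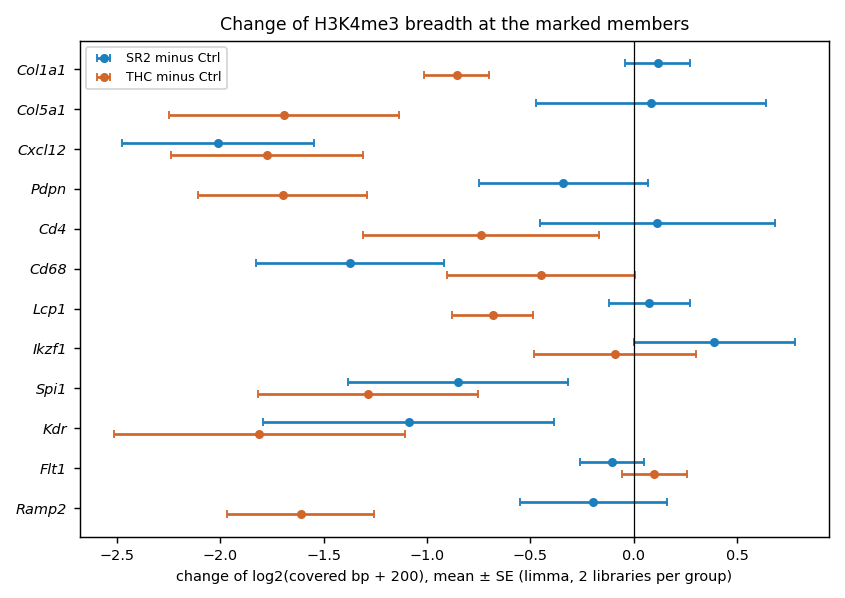
Change in log2(covered bp + 200) against Ctrl (horizontal) for each marked member in SR2 (blue) and THC (orange); points are limma estimates and bars 1 SE, 2 libraries per group. THC estimates lie below 0 for all but Flt1, those of Cxcl12, Cd68, Spi1 and Kdr are a description, no estimate passed an adjusted p of 0.05, and under quantile normalization the THC estimates of Cd68, Ikzf1 and Spi1 were above 0.

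The plot of changes has the SR2 and THC estimates side by side, and both use the same Ctrl libraries. Compared directly with SR2, THC was narrower at an unadjusted p under 0.05 at 5 members: Col1a1 (−0.97 ± 0.16), Col5a1 (−1.78 ± 0.56), Pdpn (−1.36 ± 0.41), Lcp1 (−0.76 ± 0.20) and Ramp2 (−1.42 ± 0.36). Over all regions 6.84% were narrower and 1.84% wider at that level. The adjusted p-values of these 5 were 0.318 to 0.393 (limma). Leaving out the THC library of replicate 2 brought adjusted p-values under 0.05 in THC against Ctrl for Col1a1 (0.0360), Pdpn (0.0135), Cd4 (0.0316) and Ramp2 (0.0471), with 2183 regions called. Over the 14 alternatives tried these adjusted p-values ran from 0.0175 to 0.752 for Col1a1, 0.0135 to 0.752 for Pdpn, 0.0316 to 0.979 for Cd4 and 0.0158 to 0.752 for Ramp2. The single THC library left is then assumed to vary like the other groups.

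H3K27me3 peaks were few at the markers and had low −log10 q. A broad peak lay over the gene or its 5 kb of flank at 8 of the 39 markers in at least 1 library (20.5%, against 11.7% of all protein-coding genes) and at 1, Sox17, in at least 2 (2.53% of all). The Ctrl library of replicate 1, which had the most peaks, marked 6 (Col1a2, Pdgfra, Adgre1, Lcp1, Erg and Sox17, where 7.92% of all genes were marked). Without that library 3 markers had a peak in at least 1 library (Fap, Thy1 and Sox17). The SR2 library of replicate 1 marked Fap and Sox17 (2.96% of all) and the THC library of replicate 1 Thy1 and Sox17 (3.07% of all). The libraries of replicate 2 marked none of the 39, and 1.11%, 0.507% and 0.137% of all genes in Ctrl, SR2 and THC. All 10 peaks had a −log10 q of 1.23 to 1.92, near the lists' lower limit of about 1, so none passed a −log10 q of 2. Within their own lists they ranked from the 12.5th to the 72.2nd percentile, with 4 above the median: Sox17 in Ctrl (72.2) and SR2 (69.5), Thy1 (68.3) and Fap (51.0).

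Sox17, a transcription factor of endothelium and endoderm, had 300, 294 and 924 bp of H3K27me3 in the Ctrl, SR2 and THC libraries of replicate 1 and none in those of replicate 2. The Ctrl peak (chr1:4496632-4496931) lay apart from those of SR2 (chr1:4492410-4492703) and THC (chr1:4492465-4493388), which overlapped each other. All 3 were inside the gene. Peaks at Col1a2 (805 bp), Pdgfra (391 bp) and Adgre1 (295 bp) were in the flank and those at Fap (334 bp), Lcp1 (280 bp) and Erg (337 bp) inside the gene. The peak at Thy1 (250 bp) crossed an end of the gene, with most of it in the flank. Lcp1 was the only marker with both H3K4me3 at the start and H3K27me3, and its H3K27me3 peak (chr14:75219979-75220258) lay far from its start. Pdgfra, Fap, Adgre1 and Erg had an H3K27me3 peak and, away from the start or ends, H3K4me3 inside the gene. In Adgre1 and Erg the 2 marks were seen in different treatments. As a positive list, 20 developmental regulators known as Polycomb targets had H3K27me3 at 16 genes in the Ctrl library of replicate 1, at 6 in that of replicate 2, and at 0 in the THC library of replicate 2. How deeply the H3K27me3 libraries were sequenced is unknown, so a marker without a peak is only not detected in these lists.

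**Figure D5:**
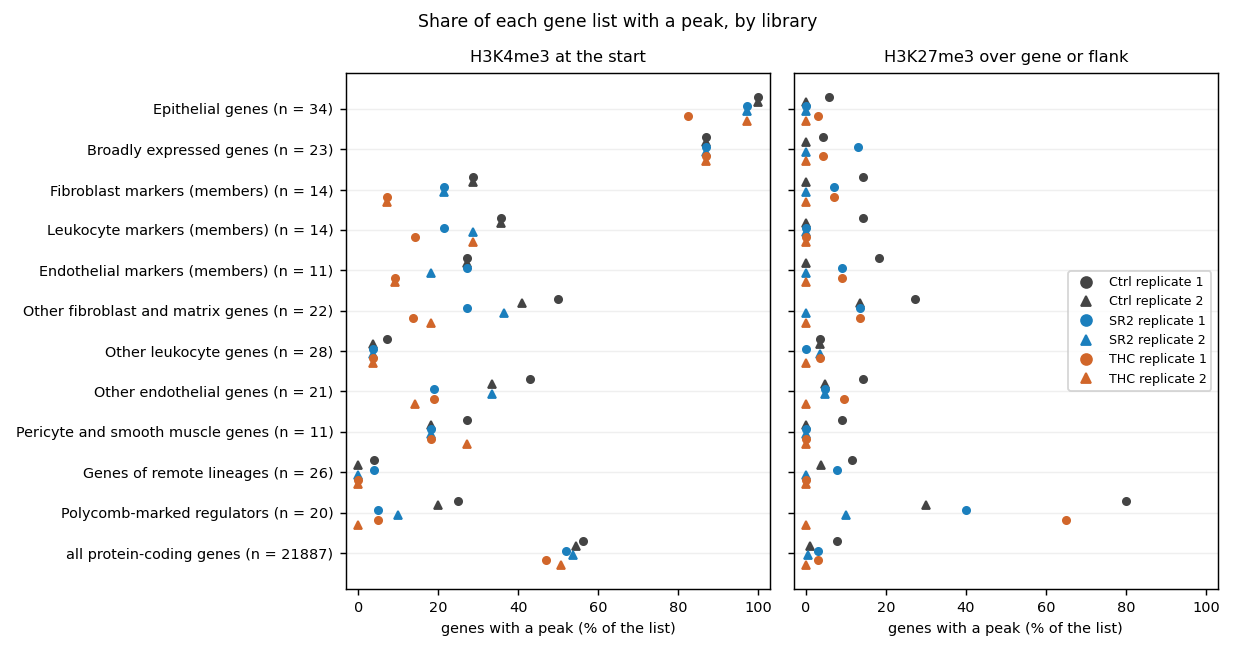
Share of each gene list with a peak (horizontal, % of the list) in each library, for H3K4me3 at the start (left) and H3K27me3 over the gene or flank (right); colours are treatments, circles replicate 1 and triangles replicate 2. For H3K4me3 the 3 member lists lie between the epithelial genes, all marked in Ctrl, and the genes of remote lineages, of which 0 of 26 were marked in both Ctrl libraries.

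In the plot of shares by list the members lie between the epithelial genes and the genes of remote lineages for H3K4me3 but not for H3K27me3. An H3K27me3 peak in at least 1 library was found at 20.5% of the members and at 21.7% of the broadly expressed genes. The share was 8.82% for the epithelial genes and 11.5% for the genes of remote lineages. For H3K4me3, genes of remote lineages (neuron, muscle, liver and the like) had H3K4me3 at 2 of 26, each in a single library, and broadly expressed genes at 20 of 23, all in 6 libraries. The members' 12 of 39 and the 11 of 22 other fibroblast and matrix genes lay between these, while the 28 other leukocyte genes, with 2 marked, were near the remote lineages.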

How the data were processed

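H3K4me3 and H3K27me3 CUT&Tag libraries (6 each, 2 replicates per treatment) were read as 1 peak list per library on mm10. Tools named in the submitters' processing notes, with no roles, are MACS3, Bowtie2 2.5.4, cutadapt 5.2, SAMtools 1.8, Picard, bedtools and deepTools, and peak names carry single library names, so the authors called peaks per sample. The deposited values are a score, a fold enrichment (a ratio within 1 library), −log10 p and −log10 q, and for H3K4me3 the distance of the summit from the peak's start. They are the authors' and were used only to rank, filter or describe peaks. The labels and the series' design text name different dissociation enzymes. Gene parts such as exons were not analysed here.

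Peaks on chromosomes 1 to 19, X and Y were kept, and peaks of a mark sharing at least 1 bp were merged over its 6 libraries into 24596 regions for H3K4me3 and 4187 for H3K27me3. H3K4me3 was assigned within 1 kb of RefSeq starts (GRCm38.p6), or of either gene end for genes without one, and H3K27me3 over the gene or 5 kb of flank. Summit pileups were recovered from fold and −log10 p, and were whole within 0.02. Covered bp were tested with limma 3.58.1 (R 4.3.3, trend) on log2(bp + 200), for 15772 regions marked in at least 2 libraries, all 6 libraries in 1 fit, centred on the regions marked in all 6, with Benjamini-Hochberg adjustment. The script was tested on simulated data. Without centring the median change was −0.17 in SR2 and −0.52 in THC, so changes are relative to these shifts. Replicate numbers are batch numbers in the labels and pair the samples, and deviations from group means correlated by −0.06, 0.03 and 0.05 over regions.

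All members were accounted for; a member has its value in every library where it had H3K4me3 at the start or H3K27me3 in at least 2 libraries of the mark, and at most 4 genes were named per other list. The members and lists were chosen with earlier results of these data known. Alternatives were other windows, overlaps, q limits, equal peak numbers, pseudocounts, scalings, a replicate block and leaving out each library.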

Additional observations from a re-analysis of the deposited data

How the results depend on the processing

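Whether regions passed the threshold depended on the pseudocount, the scaling and single libraries. Against the 0 regions called by limma, SR2 against Ctrl gave 1059 with a pseudocount of 50 bp and 994 without centring. THC against Ctrl gave 1417 and 1914 under these settings, 39 with regions marked in at least 1 library, 4 with equal peak numbers, 1929 with only the 4 libraries compared, and 0 to 2183 when leaving out 1 library at a time, the 2183 without THC replicate 2. THC against SR2 gave 0 to 1189, the 1189 without the same library. With the replicate block, which pairs the samples by batch, 0 regions were called in each comparison, so it changed no call. Under the other settings the members that passed were Cxcl12 in SR2 (pseudocount 50 bp), and in THC Col1a1, Cxcl12, Lcp1 and Ramp2 (no centring), Kdr and Ramp2 (4 libraries), Col1a1, Cxcl12 and Ramp2 (pseudocount 50 bp) and Cd4, Col1a1, Pdpn and Ramp2 (without THC replicate 2). In THC against SR2, Cd4, Col1a1 and Pdpn passed without THC replicate 2. Cxcl12 and Kdr reached the filter only through Ctrl, so their calls are no evidence of a change. With only the 4 libraries compared, Ramp2 too reached it only through Ctrl, and that call is no evidence either. The cause was not tested.

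Changes in SR2 took the other sign without centring for Col1a1 (−0.0229), Col5a1 (−0.0548), Cd4 (−0.0248) and Lcp1 (−0.0643), with equal peak numbers for Col5a1 (−1.42), with quantile normalization for Ramp2 (0.17), and on leaving out 1 library at a time for Col5a1 (range −0.18 to 0.35), Lcp1 (−0.0180 to 0.17) and Flt1 (−0.28 to 0.0709). In THC they did so with quantile normalization for Cd68 (0.64), Ikzf1 (0.18) and Spi1 (0.10), with equal peak numbers for Cd68 (0.28), without centring for Flt1 (−0.28), with a pseudocount of 1000 bp for Ikzf1 (0.00012), and on leaving out 1 library at a time for Cd4 (range −1.59 to 0.13), Cd68 (−0.98 to 0.11), Ikzf1 (−0.65 to 0.49) and Flt1 (−0.0516 to 0.27).

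Members with H3K4me3 in all 6 libraries numbered 1 with a −log10 q of at least 5, and 3 to 5 when leaving out 1 library (5 without THC replicate 1). Those marked in Ctrl and not in SR2 numbered 0 with equal peak numbers and 2 to 3 on leaving out 1 library, and those not in THC 3 and 5 to 8 (8 without THC replicate 2). H3K27me3 in at least 1 library was found at 5 members without flank, 2 with an overlap of at least 500 bp, 0 with a −log10 q of at least 2 and 3 to 8 on leaving out 1 library (3 without Ctrl replicate 1), and in at least 2 libraries at 0 under both stricter settings. The share of all genes is not given for these settings, so these counts describe the members only. With 2 libraries a group and short H3K27me3 lists, an absent peak is only not detected.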
